A study of Mus musculus with 8 samples.

Results

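Neurotrophins are secreted growth factors that keep neurons alive and tune their synapses, and the genes described here are 2 of the ligands and 4 of the receptors of that system in the mouse hippocampus. They are Bdnf (brain-derived neurotrophic factor), Ntf3 (neurotrophin-3), Ntrk2 (the receptor TrkB), Ntrk3 (the receptor TrkC), Ngfr (the receptor p75) and Sort1 (sortilin). They were taken by symbol from a gene expression table of 56575 features, 24338 of which carry a symbol. A member symbol stood on 7 rows, because Ntrk3 had 2, and the row with the higher mean was used for each of the 6 genes. None of the 6 passed the test between the genotype labels. All 6 had lower means in the Slm2KO-labelled libraries, at 0.851 to 0.973 of the WT mean, though Sort1 did not when Slm2KO 4 was left out. Ngfr and Sort1 varied in opposite directions from library to library.

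The study examined gene expression and splicing in the hippocampi of Slm2KO and wild-type (WT) animals. There were 4 RNA-seq libraries labelled Slm2KO and 4 labelled WT, each from hippocampus of C57BL/6 mice aged 8 weeks, with no treatment named. SLM2 is an RNA-binding splicing regulator encoded by Khdrbs3. What was removed from that gene, and whether it was removed from every cell, is not stated in the labels. The samples are numbered 1 to 4 within a label, but nothing says that each is a separate animal, so p-values measure only the spread between these samples. The tissue is bulk, so fewer cells of a type and less RNA per cell cannot be told apart.

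The 8 libraries held 104020058 to 125985224 reads. Khdrbs3 averaged 29749 ± 3040 normalised reads in the Slm2KO-labelled libraries and 22051 ± 2387 in the WT libraries (SD, n = 4 each), with no overlap, so the level of the targeted gene goes against the label. The difference did not pass adjustment (log2 difference 0.43, limma adjusted p = 1.00, exact permutation p = 0.0286). The single value for the whole gene cannot show the loss of a part of it, and the groups are named below by their labels. Markers of dentate granule cells, of CA1 and of CA2 and CA3 pyramidal cells were present in every library. Transcripts of the choroid plexus, the ventricular tissue that secretes cerebrospinal fluid, differed more than those of any other listed cell type. The sum of 8 of its markers, most of it Ttr, spanned 10.2-fold, and Slm2KO 4 held the highest sum and WT 2 the lowest.

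Neurotrophins are made as precursors that proteases cut to the mature ligand. Mature BDNF binds TrkB and mature NT-3 binds TrkC, tyrosine kinase receptors that signal survival and synaptic strengthening through Ras, PI3 kinase and phospholipase C gamma. The precursors bind p75, a receptor of the tumour necrosis factor receptor family, together with sortilin, which also sorts pro-BDNF inside the cell. In the adult hippocampus BDNF is a product of excitatory neurons that follows their activity, whereas NT-3 is known from dentate granule cells. TrkB and TrkC each exist as a full-length kinase receptor and as truncated receptors that lack the kinase. The table gives 1 value per row, so these forms were not separated. The further rows at the 3′ end of Ntrk3, described below, do not separate them either.

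The ligand pair and the receptor pair are each related by descent, and the stretches in which their coding sequences were most alike are shown because they bear on whether reads of one could be counted for the other. The sequences come from the GENCODE vM21 transcripts on GRCm38, the assembly of mm10, read 5′ to 3′ along the coding strand. Capitals mark the longest run of bases that each pair shares. The Bdnf window is chr2:109724060-109724149 on the plus strand (codons 220 to 249 of 249), and the Ntf3 window is chr6:126101732-126101821 on the minus strand (codons 241 to 270). The Ntrk2 window is chr13:59054374-59054463 on the plus strand (codons 599 to 628 of 821), and the Ntrk3 window is chr7:78250703-78250792 on the minus strand (codons 600 to 629 of 825).
Bdnf: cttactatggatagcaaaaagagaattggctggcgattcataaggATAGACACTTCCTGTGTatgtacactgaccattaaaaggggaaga
Ntf3: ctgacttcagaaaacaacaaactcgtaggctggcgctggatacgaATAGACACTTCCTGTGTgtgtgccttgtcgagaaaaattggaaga
Ntrk2: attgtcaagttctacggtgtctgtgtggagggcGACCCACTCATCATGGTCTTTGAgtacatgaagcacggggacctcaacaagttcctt
Ntrk3: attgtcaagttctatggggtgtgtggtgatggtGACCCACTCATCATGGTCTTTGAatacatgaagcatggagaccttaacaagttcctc

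The shared run was 17 bases for Bdnf and Ntf3 and 23 bases for Ntrk2 and Ntrk3. Within the windows of 90 bases, 62 positions were identical in the ligand pair and 78 in the receptor pair. Over the aligned coding sequences the identity was 53.0% for the ligands and 60.6% for the receptors. No stretch of 30 bases was shared between any of the 6 genes. Against all other annotated genes, Bdnf shared 13.7% of its 30-base stretches, of which 840 of 855 lay in Gm45346, a gene on the opposite strand that overlaps Bdnf exons by 896 bases. Sort1 shared 4.09%, all of it with the opposite-strand gene Gm12523. The shares were 1.26% for Ngfr, 0.75% for Ntrk3, 0.688% for Ntrk2 and 0 for Ntf3. The strand setting of the counting was not given. How reads in the overlaps of Bdnf and Sort1 with those genes were assigned is therefore not known.

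Levels were first compared per kilobase of annotated exon within each row, a scale on which genes can be set side by side. Sort1 stood highest, at 5305 ± 482 normalised reads per kb in the Slm2KO-labelled and 5452 ± 441 in the WT libraries (SD, n = 4 each, as for each gene in this paragraph), above 94.4% of the 16640 genes compared. Bdnf followed with 1479 ± 96.7 per kb in Slm2KO-labelled and 1665 ± 238 in WT libraries. Ntrk2, the receptor of BDNF, had 1442 ± 75.6 and 1489 ± 116 per kb in the Slm2KO-labelled and the WT libraries. The Bdnf level per kb exceeded the Ntrk2 level in 5 of 8 libraries, so these neighbours were not separated.

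Ntrk3 averaged 877 ± 95.3 per kb in the Slm2KO-labelled and 1000 ± 65.6 in the WT libraries. Its ligand Ntf3 averaged 823 ± 33.6 per kb in Slm2KO-labelled and 967 ± 107 in WT libraries, and Ntrk3 exceeded Ntf3 in 5 of 8. Ngfr was lowest, at 82.9 ± 36.0 per kb in Slm2KO-labelled and 97.4 ± 31.3 in WT libraries, above only 22.4% of genes. Each of the steps Sort1 over Bdnf, Ntrk2 over Ntrk3 and Ntf3 over Ngfr held in 8 of 8 libraries, and the gap of Ntf3 over Ngfr was 9.93-fold in the means. The order depends on the length used. Divided by the longest transcript instead, Ntrk2 (3181 and 3285 per kb in Slm2KO-labelled and WT libraries) lay above Bdnf (2156 and 2427 per kb). On that scale Ntrk3 (1372 to 1923 per kb over the 8 libraries) lay above Ntf3 (874 to 1229 per kb) with no overlap.

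**Figure D1:**
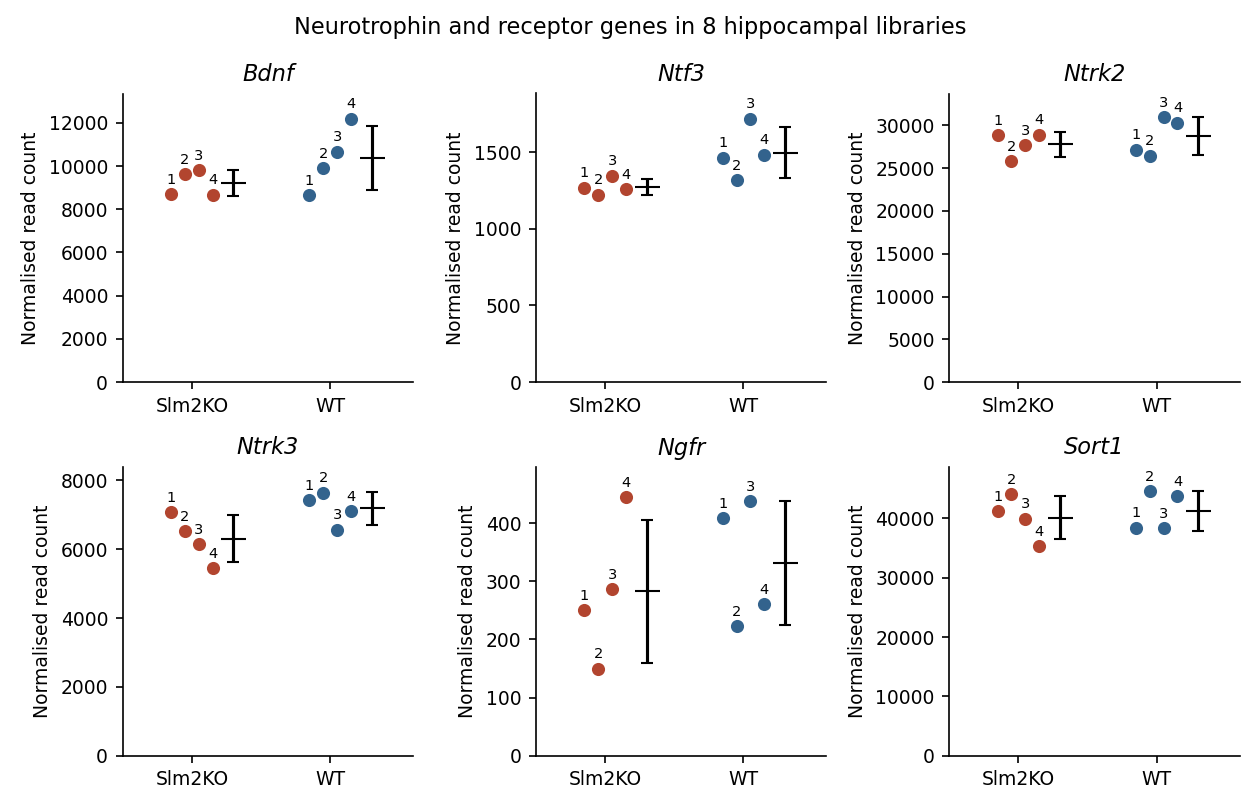
Normalised read count of each gene (vertical axis from 0) in the 4 Slm2KO-labelled libraries (red, left) and the 4 WT libraries (blue, right), with library numbers beside the points and the mean with its SD in black. The groups overlap for each of the 6 genes, and Ngfr has the widest relative spread, 2.98-fold between its highest and lowest library.

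Among the ligands, Ntf3 had the smaller p. Its normalised read count was 1269, 1221, 1345 and 1258 in Slm2KO libraries 1 to 4, against 1463, 1317, 1718 and 1485 in WT libraries 1 to 4 (row GSMG0033691, chromosome 6, 126101413 to 126166744, minus strand, mm10). Of the Slm2KO-labelled libraries, 3 lay below each WT library, and Slm2KO 3 lay above WT 2, so the groups overlapped. The log2 difference was -0.23 (SE 0.084), a fold of 0.751 to 0.973 in the 95% interval. It did not pass adjustment over all features (limma p = 0.0222, adjusted p = 1.00, exact permutation p = 0.0571, two-sided). The summed markers of dentate granule cells, a known source of Ntf3, ranged from 23000 to 30630 in Slm2KO-labelled and from 30510 to 31900 in WT libraries, with 7 of 7 markers lower in the Slm2KO-labelled group (median log2 difference -0.20). Other lists were lower to a like degree, with 7 of 8 endothelial and mural markers (median -0.20), 6 of 6 markers of CA2 and CA3 pyramidal cells (-0.15) and 6 of 6 of oligodendrocyte precursors (-0.15). Meningeal fibroblast markers were lower by more, with 5 of 6 lower (median -0.35), and the Schwann cell and cholinergic lists each had a median of -0.17. The medians of the CA1 pyramidal (0.18), interneuron (0.05) and choroid plexus lists (0.003) were positive. The part of any of these cells in the Ntf3 difference was not tested.

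Bdnf had 8695, 9631, 9798 and 8664 normalised reads in Slm2KO libraries 1 to 4, against 8653, 9910, 10663 and 12187 in WT libraries 1 to 4 (row GSMG0021533, chromosome 2, 109674700 to 109727043, plus strand). WT 4 was the highest library and WT 1 the lowest, so the WT libraries spanned the whole range and each Slm2KO-labelled library fell inside it. The log2 difference was -0.16 (SE 0.096; fold interval of 0.770 to 1.04; limma p = 0.123, adjusted p = 1.00; exact permutation p = 0.200). The table gives a single value over all Bdnf promoters and 3′ ends, so its alternative transcripts were not compared.

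Of the Trk receptors, Ntrk2 differed less between the labels. It had 28881, 25812, 27652 and 28915 normalised reads in Slm2KO libraries 1 to 4, against 27148, 26481, 30969 and 30302 in WT libraries 1 to 4 (row GSMG0009846, chromosome 13, 58806568 to 59133970, plus strand). The lowest value was in Slm2KO 2 and the highest in WT 3, and the groups were interleaved. The log2 difference was -0.04 (SE 0.066; limma p = 0.514, adjusted p = 1.00; exact permutation p = 0.486). Its interval of 0.876- to 1.07-fold leaves out a change of 1.5-fold in either direction. This row holds all 17 coding exons of full-length TrkB together with the truncated transcripts, so a shift between the forms would not show in it.

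Ntrk3 had 7084, 6524, 6148 and 5452 normalised reads in Slm2KO libraries 1 to 4, against 7433, 7646, 6564 and 7108 in WT libraries 1 to 4 (row GSMG0043600, chromosome 7, 78192114 to 78577980, minus strand). The Slm2KO-labelled libraries 2, 3 and 4 lay below each WT library, and Slm2KO 1 lay within the WT range. The log2 difference was -0.19 (SE 0.083; fold interval of 0.770 to 0.993), which did not pass adjustment (limma p = 0.0408, adjusted p = 1.00; exact permutation p = 0.0571). Slm2KO 4, the library with the most choroid plexus transcripts, was also the lowest for Ntrk3. Without Slm2KO 4 the log2 difference was -0.13, and without both WT 2 and Slm2KO 4 it was -0.10 (limma adjusted p = 0.898 and 0.803). With log2 Ttr as a covariate, a fit added after seeing the data, the log2 difference was -0.19 (limma adjusted p = 0.914). The part of choroid plexus tissue in the Ntrk3 difference was not tested.

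The table gives most of the 3′ end of Ntrk3 in rows other than its main row, though not as a clean split. The main row holds all 17 coding exons of the full-length transcript Ntrk3-201 and also the last exon of the truncated transcript Ntrk3-202, which ends at 78300690. A further row with the Ntrk3 symbol, GSMG0043599 (chromosome 7, 78180883 to 78192743), and 2 rows without a symbol, GSMG0036139 (78182997 to 78186373) and GSMG0036137 (78175965 to 78178821), lie in exon 17, the last exon of Ntrk3-201. That exon has 16786 bases, of which 16603 are 3′ untranslated, and Ntrk3-202 does not contain it. The main row also holds the coding transcripts Ntrk3-205 and Ntrk3-206 (839 and 864 codons, against 825 in Ntrk3-201). Those transcripts end at 78192407 and 78192380, before most of the last exon of Ntrk3-201. The last-exon rows therefore cannot tell full-length from truncated forms, or either from a different 3′ end. The main row overlaps GSMG0043599, as it reaches 631 bases into that exon and GSMG0043599 holds 182 coding bases. GSMG0036139 lies within GSMG0043599, and no source says how reads were divided between such rows.

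The last-exon rows did not share the lower values of the coding row. GSMG0036137, the row nearest the 3′ end, had 5649, 7358, 7320 and 7911 normalised reads in Slm2KO libraries 1 to 4, against 6366, 6811, 6229 and 5576 in WT libraries 1 to 4. Slm2KO 2, 3 and 4 lay above each WT library, and Slm2KO 1 lay near the bottom of the WT range. Its log2 difference of 0.17 was not called (exact permutation p = 0.229, limma adjusted p = 1.00). GSMG0043599 averaged 4250 ± 484 in Slm2KO-labelled and 4039 ± 424 in WT libraries (SD, n = 4 each; log2 difference 0.07). GSMG0036139 averaged 5137 ± 642 in Slm2KO-labelled and 4856 ± 562 in WT libraries (SD, n = 4 each; log2 difference 0.08). Neither of these differences passed (limma adjusted p = 1.00 for both).

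Set against the coding row, the log2 ratio of GSMG0036137 was -0.33, 0.17, 0.25 and 0.54 in Slm2KO libraries 1 to 4, against -0.22, -0.17, -0.08 and -0.35 in WT libraries 1 to 4. The mean ratio was higher in the Slm2KO-labelled libraries by 0.36 on the log2 scale, and by 0.24 without Slm2KO 4. For GSMG0043599 and GSMG0036139 the ratio was higher by 0.27 each, and by 0.14 each without Slm2KO 4. In each of the 3 ratios, Slm2KO 2, 3 and 4 lay above the highest WT library and Slm2KO 1 did not. The 3 ratios are not separate observations, as they share the coding row, in which Slm2KO 2, 3 and 4 were lowest, and GSMG0036139 lies within GSMG0043599. By their own values, 2 Slm2KO-labelled libraries lay above each WT library for GSMG0043599 and 1 for GSMG0036139. These ratios were formed after the values had been seen and are given as a description with no test.

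**Figure D2:**
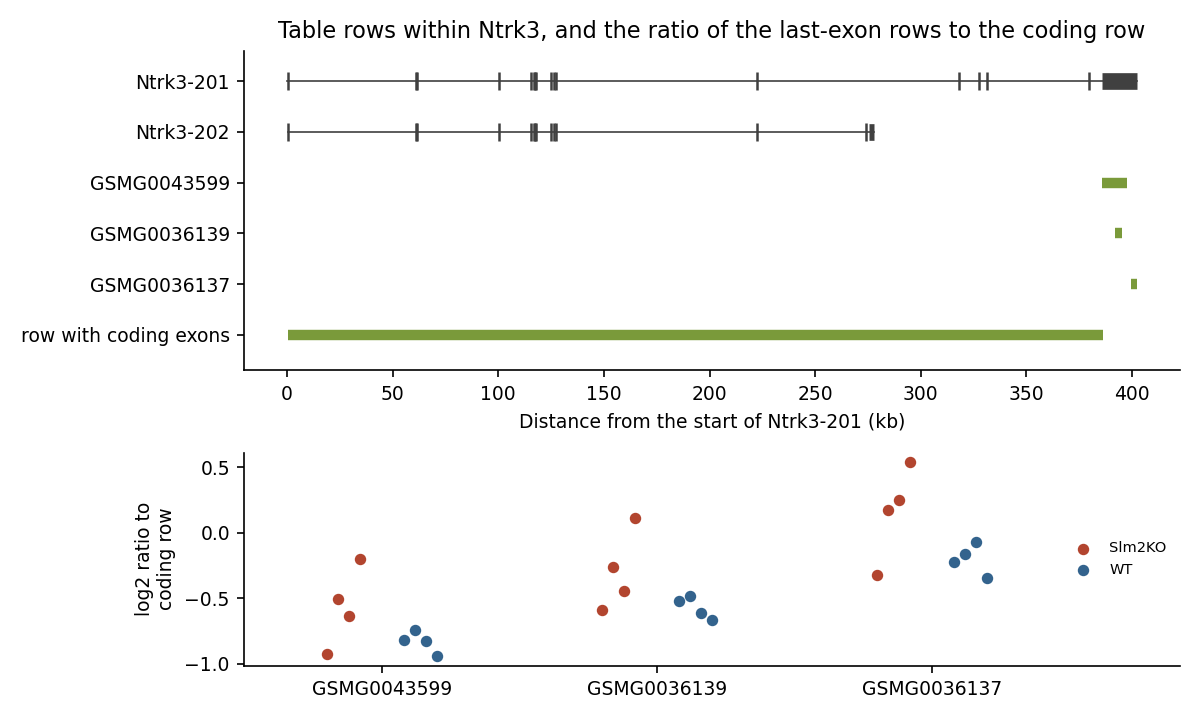
Upper panel: exons of Ntrk3-201 and Ntrk3-202 (dark; short exons drawn as ticks) and the spans of 4 table rows (green) by distance from the start of Ntrk3-201 in kb. Lower panel: log2 ratio of each last-exon row to the row with the coding exons in the 4 Slm2KO-labelled (red, left) and 4 WT libraries (blue, right). In each ratio 3 Slm2KO-labelled libraries lie above the WT libraries, and the 3 ratios share the coding row.

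Other rows inside the member genes were low or lay in introns. Of the 2 same-strand rows inside Ntrk2, GSMG0009847 had a mean of 14.4 ± 5.69 in Slm2KO-labelled and 15.01 ± 11.2 in WT libraries, and GSMG0009848 had 13.8 ± 6.92 and 10.6 ± 3.03 in the Slm2KO-labelled and the WT libraries (SD, n = 4 each). GSMG0036142, within an Ntrk3 intron, averaged 357 ± 92.6 in Slm2KO-labelled and 380 ± 64.6 in WT libraries (SD, n = 4 each). Gm9885, beside the start of the main Ntrk3 row on the opposite strand, averaged 661 ± 63.4 in Slm2KO-labelled and 742 ± 78.2 in WT libraries (SD, n = 4 each; log2 difference -0.17, limma adjusted p = 1.00). None of the rows inside member genes passed the test.

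Ngfr was the least abundant and most variable gene. It had 250.5, 149, 286 and 445 normalised reads in Slm2KO libraries 1 to 4, against 409, 222, 437 and 260 in WT libraries 1 to 4 (row GSMG0007269, chromosome 11, 95568818 to 95587699, minus strand). The highest and the lowest value were both in Slm2KO-labelled libraries, Slm2KO 4 and Slm2KO 2, and the groups were mixed. The coefficient of variation was 43.4% in Slm2KO-labelled and 32.1% in WT libraries. Counting error at the lowest library, 142 reads, is 8.39%, so most of this spread is between libraries. The log2 difference of -0.28 (SE 0.32) had an interval of 0.502- to 1.36-fold and did not pass (limma p = 0.407, adjusted p = 1.00; exact permutation p = 0.6). A change of 1.5-fold lower lay inside that interval and was not detectable at this spread.

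Sort1 had 41208, 44098, 39968 and 35327 normalised reads in Slm2KO libraries 1 to 4, against 38437, 44558, 38357 and 43726 in WT libraries 1 to 4 (row GSMG0024816, chromosome 3, 108284064 to 108361517, plus strand). Slm2KO 4 was the lowest and WT 2 the highest library, and the groups overlapped. The log2 difference was -0.04 (SE 0.080; fold interval of 0.860 to 1.10; limma p = 0.620, adjusted p = 1.00; exact permutation p = 0.629). Its sign turned positive without Slm2KO 4 (0.02) and without both WT 2 and Slm2KO 4 (0.06). SORT1 protein is a partner of p75, and the log2 ratio of Sort1 to Ngfr averaged 7.25 ± 0.78 in Slm2KO-labelled and 7.01 ± 0.60 in WT libraries (SD, n = 4 each). That difference of 0.24 lay within the spread and ran from -0.08 to 0.55 with 1 library left out.

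Over the 6 genes, 0 passed the adjusted threshold of 0.05 in limma, as against 1 of the 25667 features tested (0.0039%), which was Khdrbs2. All 6 passed the filter on low values, a mean of at least 10. An unadjusted p under 0.05 was reached by 2 of the 6, Ntf3 and Ntrk3, and by 904 features (3.52%); the genes were chosen with earlier results of these data known, and no test was made of this share. That count was 1 in limma without the trend and when any of Slm2KO 2, 3 and 4 or WT 2, 3 and 4 was left out. Without WT 1 the 2 genes were Bdnf and Ntf3, and without WT 2 and Slm2KO 4 together they were Ntf3 and Ngfr. The 4 Slm2KO-labelled and 4 WT values overlapped for each of the 6 genes, whereas 2.5% of all features had groups without overlap (1.33% higher and 1.17% lower in the Slm2KO-labelled libraries). The log2 difference was negative for 6 of 6, against 53.9% of all features, and the median was -0.18, against -0.01 over all features. The 95% interval left out a 1.5-fold change in either direction for 5 of 6, the exception being Ngfr, and for 65.7% of features.

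edgeR's quasi-likelihood test and DESeq2 on the recovered reads called none of the 6. Of all features edgeR called 1 (0.0039%) and DESeq2 called 9 (0.0351%), of which 6 were higher (0.0234%) and 3 lower (0.0117%). Before adjustment, 2 of the 6 genes, again Ntf3 and Ntrk3, had a p under 0.05 in both tools, as had 976 features (3.8%) in edgeR and 944 (3.68%) in DESeq2. The labels' sample numbers fall into a lower and a higher series with 2 libraries of each label in each, which allows a look within them without a test. Bdnf differed by -0.02 in the lower and -0.31 in the higher series on the log2 scale. Ntf3 differed by -0.16 in the lower and -0.30 in the higher series, and Ntrk3 by -0.15 and -0.24. The signs of Ntrk2 (0.03 and -0.12), Ngfr (-0.64 and 0.08) and Sort1 (0.04 and -0.12) were not the same in the lower and the higher series.

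**Figure D3:**
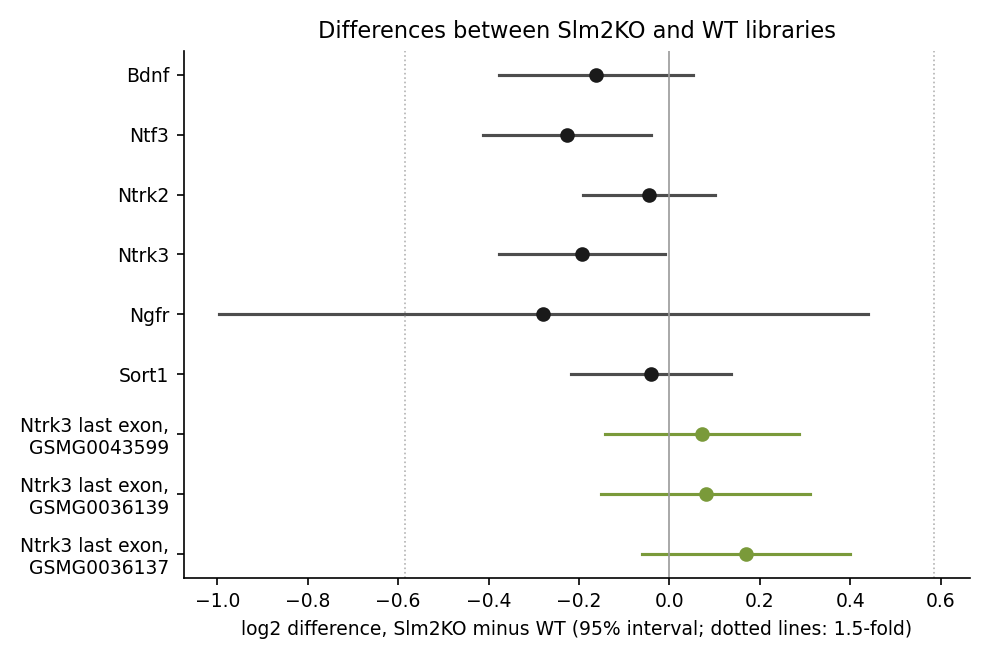
Log2 difference, Slm2KO-labelled minus WT, with its 95% interval from limma (4 libraries each) for the 6 genes (black) and the 3 last-exon rows of Ntrk3 (green); dotted lines mark a 1.5-fold change. All 6 points lie left of 0 and the last-exon rows right of it, and none passed the adjusted threshold.

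Ratios of ligand to receptor differed little between the labels. The log2 ratio of Bdnf to Ntrk2 averaged -1.60 ± 0.16 in Slm2KO-labelled and -1.48 ± 0.15 in WT libraries, and that of Ntf3 to Ntrk3 averaged -2.30 ± 0.18 and -2.27 ± 0.25 in the Slm2KO-labelled and the WT libraries (SD, n = 4 each). Both differences, -0.12 and -0.03, were smaller than the spread in either group. With 1 library left out the difference ran from -0.18 to -0.06 for Bdnf to Ntrk2 and from -0.12 to 0.08 for Ntf3 to Ntrk3, which turned positive without Slm2KO 1, Slm2KO 2 or WT 3. The log2 ratio of Bdnf to Ngfr averaged 5.13 ± 0.71 in Slm2KO-labelled and 5.01 ± 0.59 in WT libraries (SD, n = 4 each), and its difference ran from -0.18 to 0.40 with 1 library left out.

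Across the 8 libraries, 15 pairs of genes were correlated on the log2 scale. Ngfr and Sort1 ran opposite to each other, with a Pearson r of -0.876 (permutation p = 0.00456, adjusted p = 0.0684 over the 15) and a Spearman rho of -0.952 (permutation p = 0.00114, adjusted p = 0.0171). Without the 2 libraries farthest from the median of Ngfr, Slm2KO 2 and Slm2KO 4, r was -0.894, and on deviations from the group means it was -0.979. None of the other 14 pairs passed adjustment by either measure. The next largest r was 0.659, for Ntf3 and Ntrk2, and it was -0.04 without WT 3 and WT 4. Each series of sample numbers holds 4 libraries, too few for a correlation within it.

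The choroid plexus transcripts moved with both genes. The sum of the 8 markers (Ttr, Kl, Folr1, Clic6, Aqp1, Kcne2, Cldn2 and Prlr) was 874500, 390700, 859100 and 2340000 in Slm2KO libraries 1 to 4, against 1573000, 228700, 1852000 and 822800 in WT libraries 1 to 4. Most of the sum was Ttr, at 2262000 in Slm2KO 4 and 219100 in WT 2, so relations to the sum are mainly relations to Ttr. None of the markers was at 0 in any library, and 4 of 8 were lower in the Slm2KO-labelled group. The 6 relations of the genes to this sum were examined after the data had been seen. Ngfr rose with the sum (r = 0.873, permutation adjusted p = 0.0117; rho = 0.905, adjusted p = 0.0137), and r was 0.992 without WT 2 and Slm2KO 4. Sort1 fell with it (r = -0.903, permutation adjusted p = 0.0112; rho = -0.976, adjusted p = 0.00238), and r was -0.882 without the same libraries. The relations of Ntrk2, Ntrk3, Ntf3 and Bdnf, with r of 0.635, -0.517, 0.425 and -0.22, did not pass.

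With log2 Ttr as a covariate the log2 difference between the labels was -0.31 for Ngfr and -0.03 for Sort1, and neither passed (limma adjusted p = 0.914 and 0.951). Without WT 2 and Slm2KO 4 the Ngfr difference was -0.70 (limma adjusted p = 0.770). Ngfr is best known in the adult brain from cholinergic neurons of the basal forebrain, whose marker list summed to 217 to 493 in Slm2KO-labelled and 217 to 297 in WT libraries, most of it from Slc5a7. The defining marker Chat stood at 2.07 to 14.01 in Slm2KO-labelled and 10.01 to 16.3 in WT libraries. Meningeal fibroblast markers summed to 6368 to 13870 in Slm2KO-labelled and 8772 to 22210 in WT libraries, with 5 of 6 lower in the Slm2KO-labelled group. Markers of striatal neurons (5 of 6 in the table) summed to 13650, 9132, 12850 and 19580 in Slm2KO libraries 1 to 4, against 16040, 9914, 17960 and 12620 in WT libraries 1 to 4. As for Ngfr, Slm2KO 4, WT 3 and WT 1 were the highest and Slm2KO 2 and WT 2 the lowest. Thalamic markers summed to 11790 to 20240 in Slm2KO-labelled and 14100 to 20670 in WT libraries, highest in Slm2KO 4 and WT 3. The summed CA1 pyramidal markers were lowest in those libraries, at 13100 and 11460. Prkcd (8186 and 8165) and Calb2 (6947 and 7410) carried the high thalamic sums in Slm2KO 4 and WT 3. Of the others, Tcf7l2 was highest in Slm2KO 4 and Lhx9 lowest there (820), while Rora and Plekhg1 were highest in neither library. Lower in the Slm2KO-labelled group were 5 of 5 striatal, 5 of 6 thalamic and 1 of 6 CA1 markers. The part of any of these tissues in the Ngfr and Sort1 values was not tested.

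**Figure D4:**
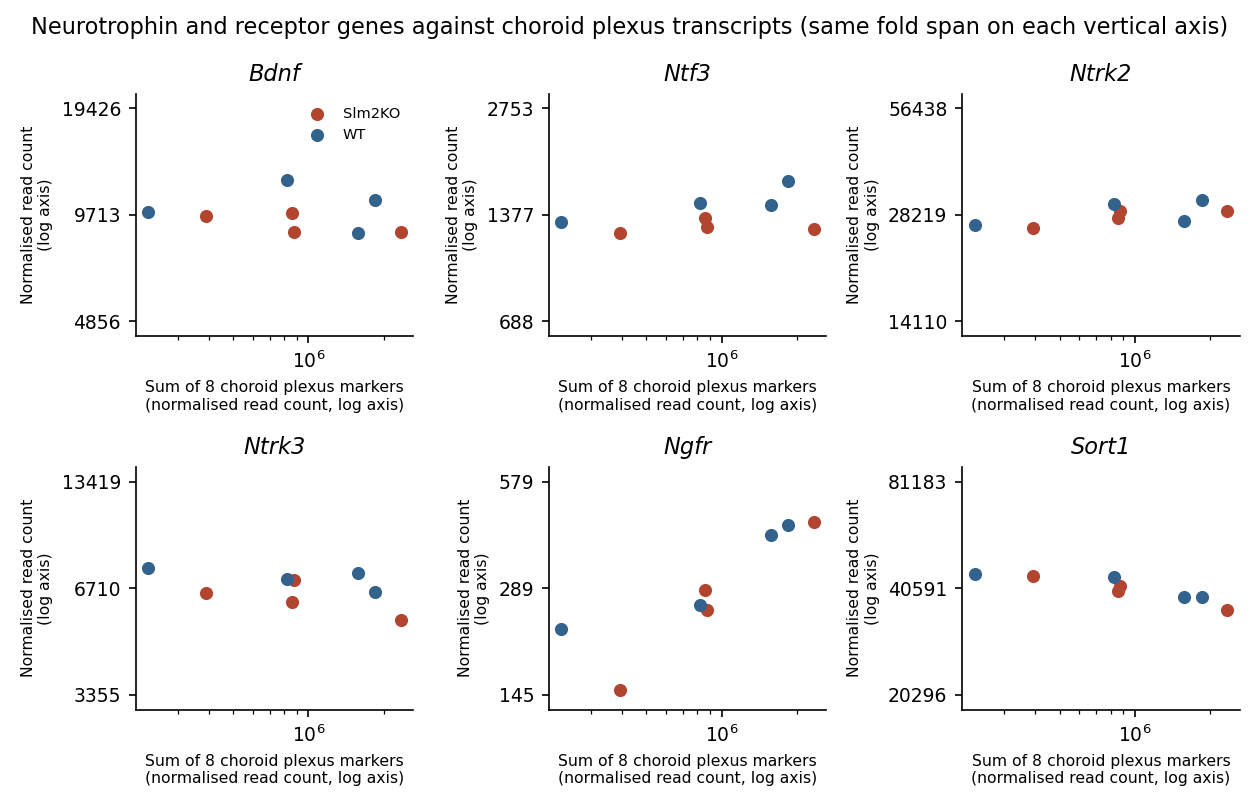
Normalised read count of each gene against the summed count of 8 choroid plexus markers (both log axes, with the same fold span on each vertical axis) in the Slm2KO-labelled (red) and WT (blue) libraries. Ngfr climbs with the sum (r = 0.873) and Sort1 declines (r = -0.903), and the labels are mixed along both.

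The genes whose pattern over the 8 libraries was most like each member were found by Pearson r among 14793 genes with a mean of at least 100, as a description. For Ngfr they were Ttc25 (r = 0.987), Crhr2 (0.985) and Plcd1 (0.985), and 469 genes exceeded 0.9. Sort1 was most like Atp2a2 (0.991), Wdr7 (0.991) and Rabl6 (0.986), with 477 genes above 0.9. For Ntrk3 they were Stub1 (0.992) and Mef2c (0.986), with 207 above 0.9. The other 3 had far fewer such genes. Bdnf was most like Map3k7 (0.971) and Epha5 (0.953), and then a row that joins Onecut1 and Gm16551 (0.948). Ntf3 was most like Cdyl (0.985), Gm5803 (0.977) and Lman2 (0.958), and Ntrk2 was most like Tpt1 (0.974), Smco4 (0.968) and Zfp709 (0.946).

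Of the rest of the pathway, 147 list entries were looked up and 142 tested in 7 lists, and 0 passed the adjusted threshold in limma. The list of other family genes held, among others, Ntf5 (NT-4) and the sortilin relatives Sorl1, Sorcs1, Sorcs2 and Sorcs3. Of its 7 genes, 6 had a negative log2 difference, with a median of -0.05, against -0.01 over all features. Sorcs2, a receptor of proneurotrophins with p75, averaged 1005 ± 199 in Slm2KO-labelled and 1084 ± 173 in WT libraries (SD, n = 4 each; log2 difference -0.12). Sorl1, a sorting receptor, averaged 4665 ± 547 in Slm2KO-labelled and 4800 ± 365 in WT libraries (SD, n = 4 each; -0.05), and the signs of Sorcs2 and Sorl1 turned without Slm2KO 4.

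Among genes that cut or release the precursors, 11 of 14 were tested, since Mmp3, Mmp7 and Plg lay under the filter. Of the 11, 6 were negative with a median of -0.01. The proprotein convertases Pcsk5, Furin and Pcsk7, which cut precursors in the secretory path, had the smallest p, with log2 differences of -0.15, -0.11 and -0.09. Furin averaged 2546 ± 183 in Slm2KO-labelled and 2750 ± 195 in WT libraries (SD, n = 4 each), which overlapped.

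Of the 42 adaptors and kinases downstream of Trk, 29 were negative, with a median of -0.03, against 53.9% of all features for the sign. An unadjusted p under 0.05 was reached by 6 of the 42, against 3.52% of all features, and 3 of the 42 had groups without overlap, against 2.5%. Rps6ka1, a ribosomal S6 kinase below ERK, averaged 794 ± 37.6 in Slm2KO-labelled and 918 ± 57.7 in WT libraries (SD, n = 4 each; log2 difference -0.21, limma adjusted p = 1.00, exact permutation p = 0.0286). Frs3, a docking adaptor of Trk receptors, averaged 1856 ± 218 in Slm2KO-labelled and 2131 ± 63.4 in WT libraries (SD, n = 4 each; -0.21, limma adjusted p = 1.00, exact permutation p = 0.0857). Sos1, the exchange factor that loads Ras, had the opposite sign with 5798 ± 70.5 in Slm2KO-labelled and 5356 ± 209 in WT libraries (SD, n = 4 each; 0.12, limma adjusted p = 1.00, exact permutation p = 0.0286). Rps6ka1 and Sos1 had groups without overlap. So did Plcg1, the phospholipase C gamma of Trk signalling, named after its values were seen, at 1843 ± 89.6 in Slm2KO-labelled and 2056 ± 141 in WT libraries (SD, n = 4 each).

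The 20 genes of Trk trafficking and turnover had 15 negative values and a median of -0.05. Dynlt1b, a dynein light chain, showed a log2 difference of -0.35, Ehd4, an endosomal ATPase, -0.21, and Spry1, a feedback inhibitor of receptor tyrosine kinases, -0.12. Dynlt1b averaged 909 ± 99.0 in Slm2KO-labelled and 1164 ± 197 in WT libraries (SD, n = 4 each), with overlap. Of 22 p75 partners, 21 were tested, as Bex3 stood in the table under its older symbol Ngfrap1. Of these, 14 were negative with a median of -0.06, led by Tnfrsf19 (-0.18), a relative of p75 that binds the Nogo receptor, Ngfrap1 (-0.11), which binds the p75 death domain, and Lingo1 (-0.15), a co-receptor of p75.

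The 22 regulators of Bdnf transcription had 17 negative values and a median of -0.04. Mef2c, an activity-dependent transcription factor, averaged 4166 ± 519 in Slm2KO-labelled and 4682 ± 343 in WT libraries (SD, n = 4 each; -0.17). Srf, another activity-dependent factor, differed by -0.14. The list of genes that respond to activity or BDNF was the only one of the 7 with a positive median among those tested, 0.08, with 8 of 19 negative. Fos, an immediate early gene, averaged 1257 ± 482 in Slm2KO-labelled and 979 ± 485 in WT libraries (SD, n = 4 each; log2 difference 0.39). The spread of Fos within either label was larger than the difference. Dusp4, a phosphatase of MAP kinases, differed by -0.14 and Pvalb, a calcium buffer of fast interneurons, by 0.10. Dusp5 did not match a symbol and was not analysed here.

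**Figure D5:**
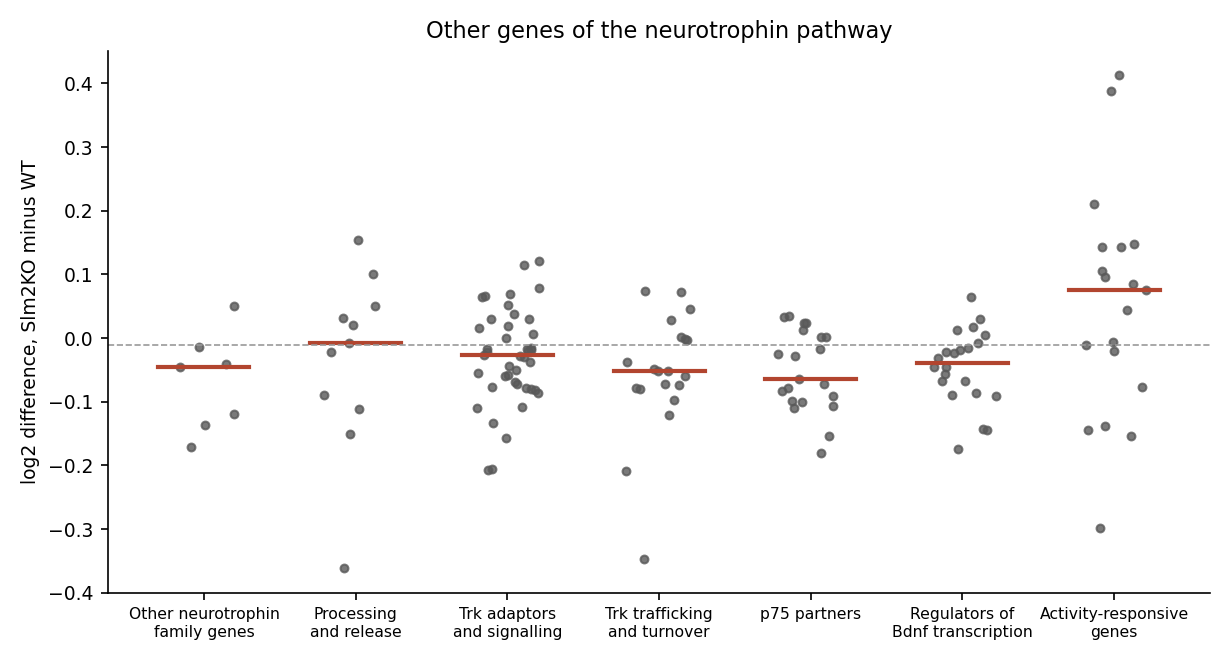
Log2 difference, Slm2KO-labelled minus WT (4 libraries each), of each tested gene in 7 lists of the neurotrophin pathway, with the list medians as red bars and the median of all features (-0.01) as a dashed line. Medians run from -0.06 for p75 partners to 0.08 for activity-responsive genes, and 0 of the 142 genes passed the adjusted threshold.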

How the data were processed

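The deposited signal values are read counts scaled by the authors, 1 for each feature in each library, and are not divided by gene length. Tools named, per the submitters' processing notes, are DESeq, FastQC, Picard and SAMtools, with no versions. Aligner, counter and strand setting were not given in the sources used here. Those notes list hg19, while the file header gives mm10 coordinates, which are used here. Per the labels, Trizol was used to extract RNA, and a TruSeq kit made libraries from 1 µg of total RNA. Values were whole multiples of 1 step per library (100% within 0.001 of a read, size factors 0.928 to 1.11), so whole reads could be recovered. The size factor of WT 1 was near 1, at 0.9985.

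Labels were compared with limma 3.58.1 (R 4.3.3) with a trended prior on log2(value + 1), for the 25667 features with a mean of at least 10, with Benjamini-Hochberg adjustment over all of them. Fold changes are on that scale, which understates changes of low genes. Single genes had a two-sided exact permutation test over 70 assignments (smallest p 0.0286). Libraries of a label differed by more than sampling noise in every pair (chi-square of 16.8 to 130 per degree of freedom). On simulated data of 25351 features for this comparison, recovery was 8% for the 50 features planted with a 1.25-fold change, 42% for the 50 with 1.5-fold and 68% for the 50 with 2-fold, beside 4 false calls; all were planted together, which eases the threshold.

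Alternatives were pseudocounts of 0.5 and 10, no filter or a mean of at least 50, TMM factors and the quasi-likelihood test of edgeR 4.0.16, DESeq2 1.42.0 size factors and test, quantile normalisation, limma without the trend, a replicate block, a covariate for the lower or higher series of sample numbers, the libraries of lowest and highest Ttr left out, and each library left out. A fit with log2 Ttr as a covariate was added after seeing the data. Named genes were the 6 members, the rows inside them, Khdrbs3, each list gene past the threshold or else the 3 with the smallest p, and the 3 genes most like each member. Members and lists were chosen with earlier results of these data known. Lengths and sequences came from GENCODE vM21 for the same assembly, read with Python 3.11.15; figures used matplotlib 3.10.9. Same-numbered libraries were not treated as pairs. Single-gene results of 4 genes that this rule names or the lists hold are not reported here.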

Additional observations from a re-analysis of the deposited data

How the results depend on the processing

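No call on the 6 genes or the 7 lists changed under the 22 alternatives, with adjusted p-values of the 6 genes between 0.770 and 1.00. Directions held for 5 genes; Sort1 turned to 0.0573 without the libraries of lowest and highest Ttr and ran from -0.0874 to 0.0193 with 1 library left out. Leaving out 1 library gave -0.25 to -0.08 for Bdnf, -0.29 to -0.16 for Ntf3, -0.08 to -0.01 for Ntrk2, -0.25 to -0.13 for Ntrk3 and -0.53 to -0.01 for Ngfr. The count of features past the threshold, 1 in limma, was 2 with a pseudocount of 10 and with log2 Ttr as a covariate (added after seeing the data), 9 with DESeq2, 0 without the trend, and 0 to 2 with 1 library left out. Scaling moved the median of all features by less than 0.1 on the log2 scale.

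Per longest transcript, Slm2KO-labelled and WT means were 2156 and 2427 for Bdnf, 911 and 1070 for Ntf3, 3181 and 3285 for Ntrk2, 1585 and 1808 for Ntrk3 and 5873 and 6037 for Sort1. Signs also turned for GSMG0009847 (-0.0605 with edgeR, -0.0571 with DESeq2) and, without the libraries of lowest and highest Ttr, for GSMG0024818 in Sort1 (-0.0863), Sorcs2 (0.1) and Sorl1 (0.0412). With 1 library left out, GSMG0009847 ran from -0.354 to 0.627, GSMG0036142 from -0.262 to 0.0159, GSMG0024818 from -0.111 to 0.317, Sorcs2 from -0.207 to 0.00463 and Sorl1 from -0.116 to 0.0207. The cause was not tested.

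The deviations of same-numbered libraries had r of 0.124, 0.323, -0.07 and -0.12. Pairs with unlike numbers ran from -0.322 to 0.317. These values cannot decide whether the numbers mark pairs. With the replicate block the log2 differences were -0.16 for Bdnf, -0.23 for Ntf3, -0.04 for Ntrk2, -0.19 for Ntrk3, -0.28 for Ngfr and -0.04 for Sort1 (limma adjusted p = 0.998 for each), and 1 feature passed. At the spread of Ngfr (SE 0.32), a 1.5-fold decrease lay inside its interval and an increase of that size outside it. Log2 ratios ran, with 1 library left out, from -0.122 to 0.0791 for Ntf3 to Ntrk3, -0.177 to 0.399 for Bdnf to Ngfr and -0.0789 to 0.553 for Sort1 to Ngfr.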
